A study of Rattus norvegicus with 81 samples.

Results

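The transcripts described here are 42 genes of skeletal muscle, listed by name, whose levels were read in arrays of rat mammary gland. For each gene the transcript cluster (the array's unit for 1 transcript) with a single gene symbol in the platform annotation was used. Of the 42 genes, 37 were measured in the table that holds methyl paraben, triclosan and oil arrays and in the lactation table, among 18166 genes, and 35 in the table of diethyl phthalate and oil arrays, among 6762 genes. Each measured gene had 1 such cluster. Myh1, Myh2 and Myh4, the fast myosin heavy chains, lay only on clusters annotated to several myosin genes, and Atp2a1, the fast calcium pump, and Cacna1s, the calcium channel that senses membrane voltage, had no cluster of their own. Tnnc1 and Cav3 were not in the diethyl phthalate table.

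Skeletal muscle contracts when thin filaments of actin slide along thick filaments of myosin inside repeated units called sarcomeres. Calcium released from the sarcoplasmic reticulum binds the troponin complex on the thin filament and allows the filaments to interact. Fibres come in fast and slow types that use different genes for troponin and myosin, and perinatal fibres use myosins of their own. The mammary gland's own contractile cells, the myoepithelial cells, carry smooth muscle isoforms rather than the sarcomeric genes described here. In bulk tissue RNA, fewer cells of a type and less RNA per cell cannot be told apart.

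The study exposed female Sprague-Dawley rats at low doses to one of 3 chemicals, diethyl phthalate (DEP, a plasticizer of scented products), methyl paraben (MPB, a preservative) and triclosan (TCS, an antibacterial agent), or to olive oil, the vehicle (OIL), and profiled the caudal mammary glands of 81 animals. Exposure through the dam ran over gestation days (GD) 1 to 20 or, through milk, postnatal days (PND) 1 to 20, both with sacrifice at PND 21. Later windows were PND 21 to 41 (milk, then gavage) with sacrifice at PND 42, and PND 42 to 62 with sacrifice at PND 63. For TCS and OIL there was also a chronic window from PND 1 to 145, with the rats mated and killed at PND 146, at the end of their own lactation. Doses were given by gavage, to the dam until weaning and then to the offspring. DEP, MPB and OIL had 5 animals in each short window, TCS had 5, 4, 3 and 3 in window order, and the chronic groups had 3 each. At PND 21, 1 female pup was taken per litter, and nothing in the labels says whether older animals of a group shared a litter.

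Values are log2 expression levels from RMA, so a difference of 1 is a 2-fold difference in signal. The labels name a batch 1 and a batch 2. Groups of 5 had 3 arrays in batch 1 and 2 in batch 2, TCS after PND 1-20 had 3 and 1, and the groups of 3 had batch 1 alone. The number of arrays, not a read depth, limits the precision. As a description of the tissue, the 15 luminal epithelial markers, all measured, had a summed log2 level between 104 and 152 in the 55 MPB, TCS and OIL arrays. The 12 white adipocyte markers had one between 120.0 and 147. No reference level was used here for these sums, so they do not test the tissue label. Replicate numbers are names only.

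The promoters of 4 members are shown because each holds a short sequence read by a muscle transcription factor. Whether these sequences bear on the levels in the arrays was not tested. RefSeq (GRCr8) transcript starts, with windows from 250 bases before to 50 bases after, were listed for 36 of the 42 members. A gene was counted if any of its listed windows held the motif. A MEF2 box, the site of the MEF2 factors that work with MyoD, lay in a window of 11 of those 36 members (30.6%), against 3.66% of 27457 genes. A CArG box, the site of serum response factor, lay in 3 of 36 (8.33%), against 1.77% of genes. The E-box letters CANNTG, read by MyoD and myogenin among others, lay in 32 of 36 (88.9%), against 73.2% of genes. These motifs read the same on both strands, each was counted regardless of overlap with another, and a match is a description of letters only. In the sequences, capitals mark the CArG box of Acta1 (first base at -94 from the start) and the MEF2 boxes of Ttn (-166), Ampd1 (-161) and Klhl41 (-142). The first listed window of each gene is shown, and positions count from its transcript start. For Ampd1 and Ttn that start lies inside the gene, whose own 5′ end is at 193287219 and 82332130. Each is written 5′ to 3′ along its gene, Acta1 at chr19:68784145-68784444 (minus strand), Ttn at chr3:82332061-82332360 (minus), Ampd1 at chr2:193287082-193287381 (plus) and Klhl41 at chr3:74841868-74842167 (plus).
Acta1: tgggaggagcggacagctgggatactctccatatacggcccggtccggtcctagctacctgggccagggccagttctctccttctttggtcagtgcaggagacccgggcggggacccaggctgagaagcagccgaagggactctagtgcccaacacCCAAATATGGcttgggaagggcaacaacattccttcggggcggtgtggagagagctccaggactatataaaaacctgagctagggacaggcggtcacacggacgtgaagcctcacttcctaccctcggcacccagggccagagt
Ttn: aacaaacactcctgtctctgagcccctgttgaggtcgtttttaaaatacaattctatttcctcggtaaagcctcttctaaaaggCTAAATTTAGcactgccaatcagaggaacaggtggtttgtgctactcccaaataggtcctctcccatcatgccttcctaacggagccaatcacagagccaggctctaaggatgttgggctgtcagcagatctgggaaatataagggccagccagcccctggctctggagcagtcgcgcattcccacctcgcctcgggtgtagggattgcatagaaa
Ampd1: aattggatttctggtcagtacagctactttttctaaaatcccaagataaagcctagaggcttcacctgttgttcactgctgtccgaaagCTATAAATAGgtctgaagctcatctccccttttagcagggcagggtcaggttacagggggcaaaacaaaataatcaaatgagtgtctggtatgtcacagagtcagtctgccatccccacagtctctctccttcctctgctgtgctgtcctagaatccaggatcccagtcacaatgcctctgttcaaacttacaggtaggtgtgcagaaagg
Klhl41: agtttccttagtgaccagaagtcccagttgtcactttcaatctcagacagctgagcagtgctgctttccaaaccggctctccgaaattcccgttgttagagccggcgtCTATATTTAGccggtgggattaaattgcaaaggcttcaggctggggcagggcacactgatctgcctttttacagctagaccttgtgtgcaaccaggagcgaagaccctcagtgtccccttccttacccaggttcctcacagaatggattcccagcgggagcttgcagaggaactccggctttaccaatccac

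Most arrays held the sarcomeric transcripts at a low, flat level, and a few arrays held nearly all of them far above it. To describe this, a member score was taken for each array as the mean over the measured members of the log2 level minus that member's mean over the table. In the table of MPB, TCS and OIL, the median score of the 55 arrays was -0.47, 10 arrays were above 0 and 7 were above 1. These 7 were MPB after GD 1-20 replicates 1 (4.90) and 2 (3.04), TCS after GD 1-20 replicate 5 (4.54), MPB after PND 21-41 replicate 4 (3.05), and 3 OIL arrays, namely PND 1-20 replicate 5 (1.83) and PND 21-41 replicates 1 (1.42) and 4 (1.16). High arrays thus occurred in groups given OIL as well as in groups given a chemical, and in both batches. In the DEP and OIL table, 6 of 40 arrays were above 1, the highest being DEP after GD 1-20 replicate 3 (5.09), DEP after PND 1-20 replicate 5 (3.87) and DEP after PND 42-62 replicate 4 (2.68). The OIL animals there are those already described. OIL after PND 1-20 replicate 5 (1.16) and PND 21-41 replicate 1 (1.64) are thus counted again among the 6. Among the 6 lactation arrays, 1 OIL array was above 1 (1.26). Differences between groups that rest on these arrays are given with and without single high arrays. In some comparisons they are also given without all arrays above a score of 1.

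**Figure D1:**
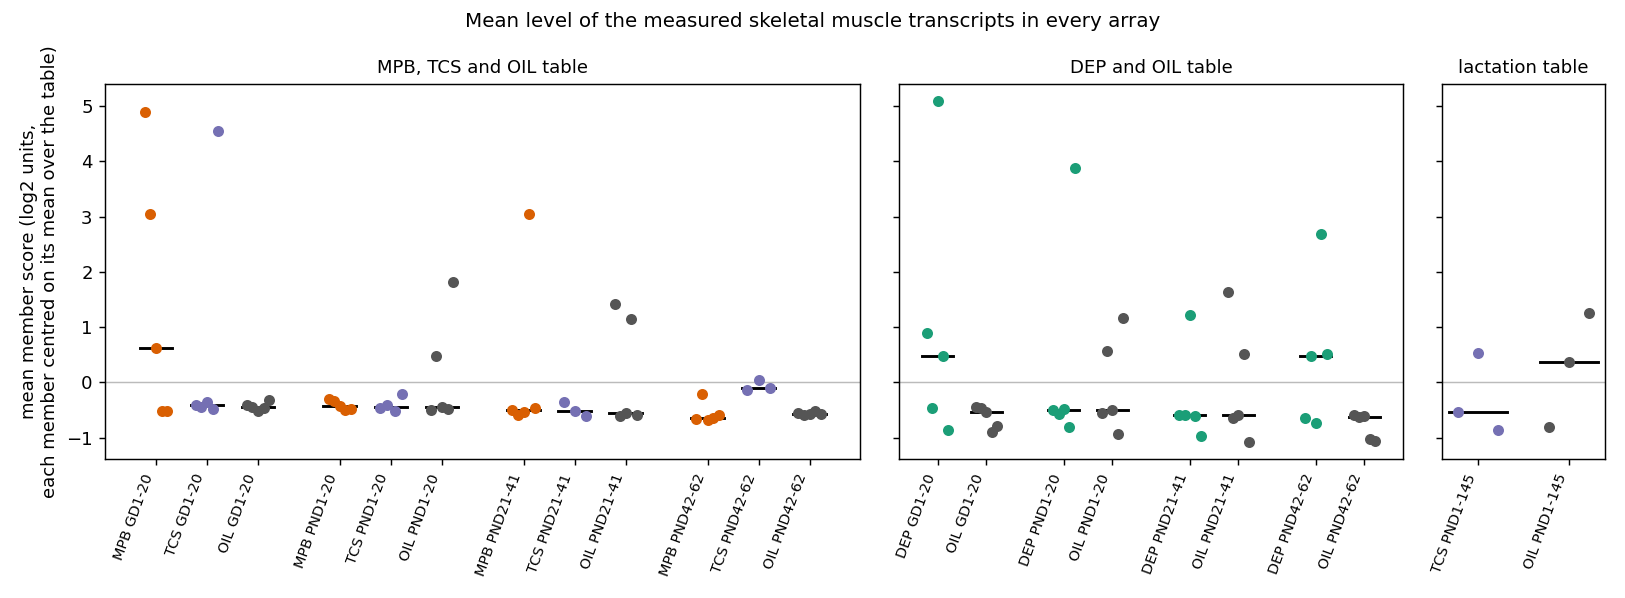
Mean member score (log2 units, each member centred on its mean over its table) of every array in the 3 tables, by group. Points are arrays and black lines are group medians; most arrays lie near -0.5, with single arrays of DEP, MPB, TCS and OIL groups above 1.

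Within groups, most members varied more than nearly any other gene. The SD that remained after group and batch were taken out had a median of 1.29 (log2) over the 37 members and 0.186 over all 18166 genes. Of the 37 members, 24 were among the 100 genes with the highest such SD and 28 were in the top 1%, which began at 0.962. The widest was Ttn, the giant spring that spans the sarcomere (1.94), and the narrowest was Tnnc1, slow troponin C (0.40). The high arrays were part of this, and the SD was not taken without them. Among the 45 arrays with a score under 0, Ttn had a range of 1.48 and Tnnc1 one of 0.80.

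Acta1, skeletal alpha-actin and the main thin filament protein, had 13.69, 12.93, 10.47, 7.96 and 7.96 in MPB glands after GD 1-20, and 8.08, 8.08, 8.60, 8.33 and 13.39 in TCS glands, against 8.46, 7.70, 8.19, 8.68 and 8.60 in OIL glands of that window. Thus 3 MPB arrays and 1 TCS array stood above the OIL range, and the rest lay within it. After PND 1-20 it had 9.18, 8.50, 8.18, 8.30 and 7.98 with MPB and 7.61, 8.28, 8.07 and 8.94 with TCS, against 8.44, 10.37, 8.61, 7.86 and 11.94 with OIL. In that window the 2 highest arrays were OIL arrays. After PND 21-41 it had 8.38, 7.67, 7.95, 12.86 and 8.37 with MPB and 8.76, 8.25 and 7.59 with TCS, against 11.19, 7.69, 8.54, 11.06 and 8.06 with OIL. The other thin filament member, Neb (nebulin, which runs along the actin filament), ranged from 6.39 to 13.16 over the 55 arrays.

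The fast troponin genes were high in the highest arrays of Acta1, but not in each array where Acta1 was raised, since Tnni2 had 6.84 in MPB after GD 1-20 replicate 3, where Acta1 had 10.47. Tnni2, fast troponin I, which holds the filament off at low calcium, reached 11.85 in MPB after GD 1-20 replicate 1 and 11.51 in TCS after GD 1-20 replicate 5, against a median of 6.38 over the 55 arrays. Tnnc2, the fast calcium-binding subunit, ranged from 6.17 to 13.68, and Tnnt3, the fast subunit that binds tropomyosin, from 7.67 to 13.41. The slow troponins had narrower ranges of 3.82 (Tnnt1), 2.60 (Tnni1) and 1.85 (Tnnc1). Tnni1 was highest in MPB after GD 1-20 replicate 1 (8.81), MPB after PND 21-41 replicate 4 (8.71) and MPB after GD 1-20 replicate 2 (8.67).

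Thick filament and Z-disc members moved with them. Myl1, an essential light chain of fast myosin, and Myl11, its regulatory light chain, reached 13.79 and 12.96, against medians of 8.07 and 6.45. Mybpc2, the fast myosin-binding protein C, spanned 6.67 to 13.07, and Mylk2, the kinase of the regulatory light chain, 6.22 to 12.10. Among Z-disc members the range was 7.58 for Ttn, 7.37 for Myoz1 (a calcineurin-binding Z-disc protein), 7.20 for Actn2 and 6.58 for Actn3 (the alpha-actinins that anchor actin), 6.92 for Xirp2, 6.77 for Klhl41, 6.67 for Myot, 6.36 for Nrap, 6.03 for Smpx, 5.24 for Ldb3 and 4.96 for Cav3 (muscle caveolin). Des, the intermediate filament desmin, which smooth muscle also makes, had the highest floor of all (8.92) and a range of 4.03, and Xirp1 had a range of 4.02.

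Calcium handling and energy genes behaved alike. Trdn, triadin, which ties the release channel to its calcium store, had the widest range of any member, 4.06 to 12.30. Casq1, the calcium store protein calsequestrin, spanned 5.68 to 13.05, Pvalb, the calcium buffer parvalbumin of fast fibres, 5.55 to 13.02, and Ryr1, the release channel itself, 6.33 to 12.48. Jph1, which joins the reticulum to the surface membrane, moved less (7.25 to 11.02). Ckm, muscle creatine kinase, spanned 6.89 to 13.82 and Mb, the oxygen store myoglobin, 6.54 to 12.36. Pygm (glycogen phosphorylase), Eno3, Pgam2 (enzymes of glycolysis) and Ampd1 (AMP deaminase) had ranges of 6.27, 6.28, 5.65 and 7.15. Trim63, a ubiquitin ligase that marks muscle protein for breakdown, exceeded 8 in just 2 arrays of the table, at 10.36 in MPB after GD 1-20 replicate 1 and 10.37 in TCS after GD 1-20 replicate 5.

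**Figure D2:**
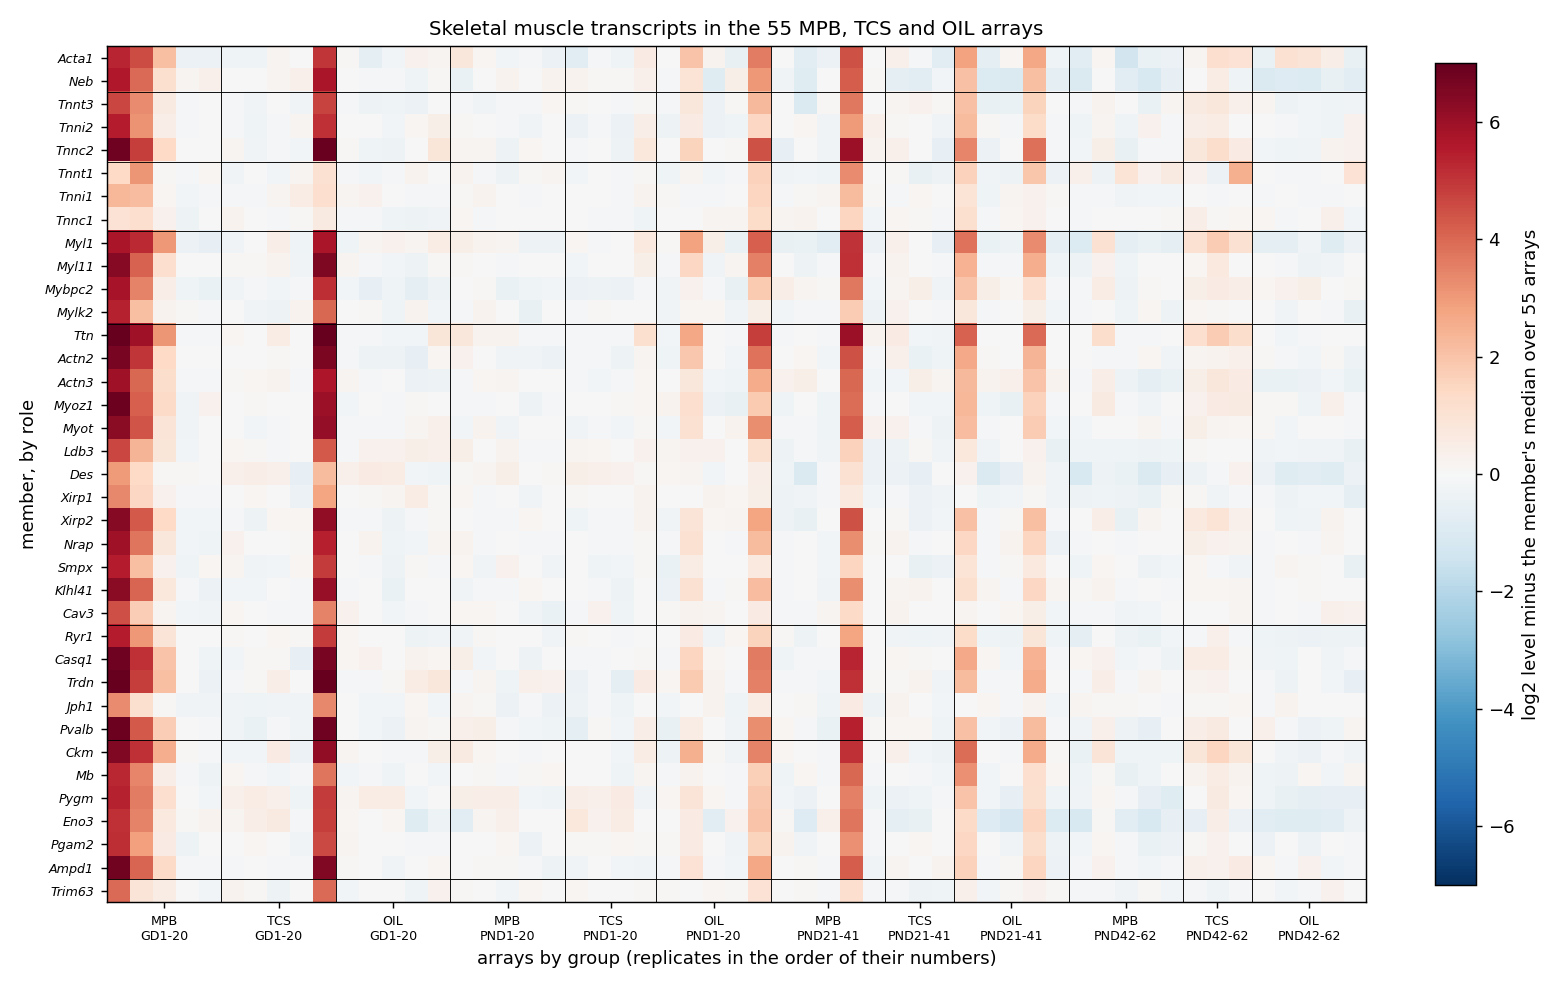
Log2 level of each of the 37 measured members minus its median over 55 arrays (colour), with members in rows by role and arrays in columns by group. Whole columns turn red together, 3 in MPB after GD 1-20, 1 in TCS after GD 1-20, 1 in MPB after PND 21-41 and 4 in OIL groups, while slow troponins, Des, Xirp1, Jph1 and Trim63 are paler.

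Across the 55 arrays, each member's correlation with the mean of the other members ran from 0.67 (Tnnt1) and 0.78 (Tnnc1) to 0.99, and the few high arrays set most of it. Without the 2 highest arrays the correlation of Des with the score fell to 0.60 and that of Jph1 to 0.71, while that of Casq1 stayed at 0.99. Below that, among the 45 arrays with a score under 0, Myl1, Ckm and Ttn still followed the score (r = 0.88, 0.87 and 0.86), and Trim63, Jph1 and Tnnc1 did not to any such degree (r = 0.10, 0.12 and 0.15). Acta1 spanned 7.12 to 9.48 in those 45 arrays. Its levels of 9.48 and 9.30 there were in OIL glands after PND 42-62 with a score of -0.58 in both arrays.

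The high arrays differed in their levels of slow fibre genes, and those genes did not share 1 order. Myh7, the slow myosin heavy chain, and Myl3, its essential light chain, were highest in MPB after GD 1-20 replicate 2, with 9.95 and 9.89, and in MPB after PND 21-41 replicate 4, with 9.30 and 9.28. In MPB after GD 1-20 replicate 1 they had 7.88 and 7.90, and in TCS after GD 1-20 replicate 5, with nearly the highest score, 6.59 and 6.85, where the lowest of the 55 arrays had 5.44 and 5.88. Casq2, the cardiac and slow calsequestrin, had the other order, with 11.48 in TCS after GD 1-20 replicate 5, 11.33 in MPB after GD 1-20 replicate 1 and 9.58 in MPB after GD 1-20 replicate 2. Myoz2, a Z-disc protein of slow and cardiac fibres, likewise had 10.00, 9.80 and 8.12 in those arrays. Fast over slow troponin was widest in TCS after GD 1-20 replicate 5, where the centred slow mean minus the fast mean was -4.33, and it was -3.78, -1.59 and -1.32 in MPB after GD 1-20 replicate 1, MPB after PND 21-41 replicate 4 and MPB after GD 1-20 replicate 2. In the DEP table it was -4.69 in DEP after GD 1-20 replicate 3. That value rests on 2 slow troponins, without Tnnc1, and on centring over other arrays, so it is not the same measure. The highest value of the 55 arrays was 0.87, in TCS after PND 42-62 replicate 3, where Tnnt1 had 8.36.

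Myh8, the perinatal myosin heavy chain, was highest in 3 high-scoring arrays of animals killed at PND 21. It had 9.96, 9.60 and 7.86 in MPB after GD 1-20 replicate 1, TCS after GD 1-20 replicate 5 and MPB after GD 1-20 replicate 2, all from animals killed at PND 21, against a median of 5.09 over the 55 arrays. In MPB after PND 21-41 replicate 4, killed at PND 42, it had 5.14, although the score (3.05) was close to that of MPB after GD 1-20 replicate 2 (3.04). The OIL arrays with high scores had 6.31 (PND 1-20 replicate 5, killed at PND 21), 4.97 and 5.92 (PND 21-41 replicates 1 and 4, killed at PND 42), so there the 2 ages lay close. OIL after PND 1-20 replicate 2, killed at PND 21, had 6.60 at a score of 0.47.

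**Figure D3:**
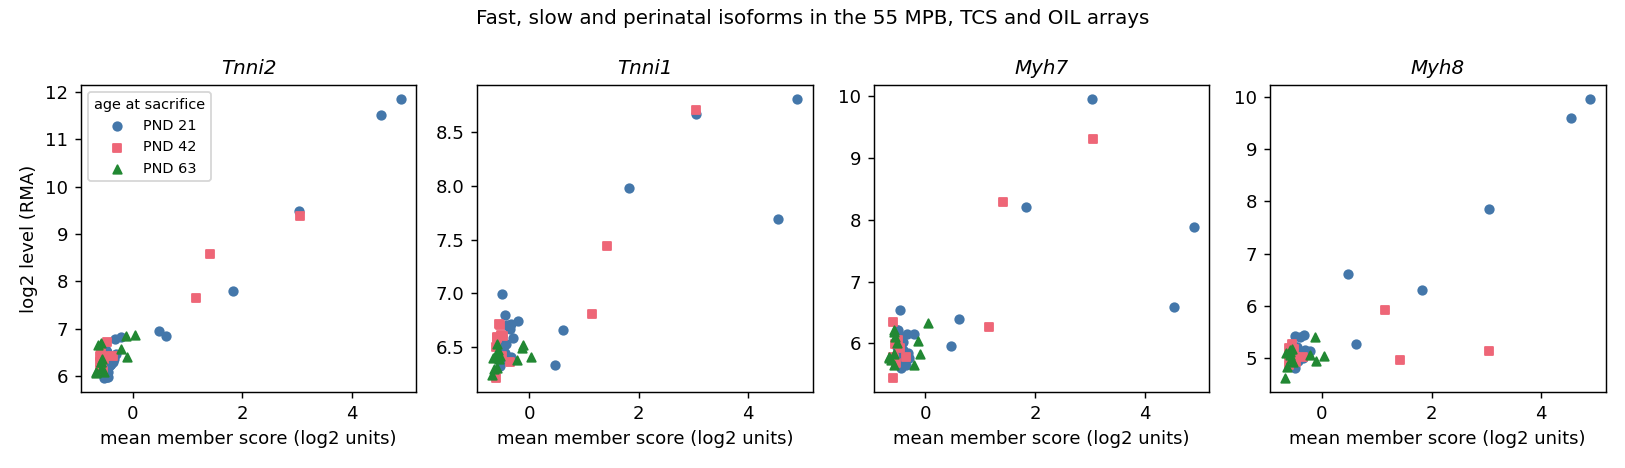
Log2 level of fast troponin I (Tnni2), slow troponin I (Tnni1), slow myosin (Myh7) and perinatal myosin (Myh8) against the member score in the 55 MPB, TCS and OIL arrays, marked by age at sacrifice. Tnni2 rises with the score in every high array, Tnni1 and Myh7 differ between arrays of like score, and Myh8 is 7.86 to 9.96 in 3 PND 21 arrays and 5.14 in the PND 42 array with a score of 3.05.

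Genes of muscle regulation and innervation stood out in the 2 highest arrays, MPB after GD 1-20 replicate 1 and TCS after GD 1-20 replicate 5. Myod1 and Myog, the factors that commit and differentiate myoblasts, had 9.58 and 9.10 in the first and 9.08 and 8.50 in the other, against medians of 6.76 and 6.70. Myf6, the myogenic factor of mature fibres, had 10.96 and 10.31 (median 6.30). Musk, the receptor kinase that gathers acetylcholine receptors at the synapse, had 8.85 and 8.28 (median 6.44), and Chrnb1, a receptor subunit, 9.38 and 7.87 (median 5.95). In the dystrophin complex, which links the cytoskeleton to the matrix, Sgca had 11.32 and 9.87 (median 8.28) and Dmd 11.02 and 11.37 (median 8.17). The atrial genes Myl7 and Nppa had at most 6.70 and 6.59 in any of the 55 arrays, close to their medians of 6.19 and 6.28. The cardiac genes Myh6 and Tnnt2 lay further from their medians, with Myh6, the cardiac alpha-myosin heavy chain, at 7.05 in TCS after GD 1-20 replicate 5 (median 5.87, next highest array 6.33) and Tnnt2, cardiac troponin T, at 8.09 in MPB after GD 1-20 replicate 1 and 7.86 in TCS after GD 1-20 replicate 5 (median 6.97). In none of the 13 comparisons of a chemical with OIL did a gene of the 5 related lists (slow and cardiac isoforms, developmental isoforms, myogenic factors, neuromuscular junction, dystrophin complex) pass the threshold.

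Markers of other cell types were also far from their means in some high arrays. In MPB after GD 1-20 replicate 1 and TCS after GD 1-20 replicate 5, the centred mean of the 15 luminal markers was -1.99 and -1.44, that of the 9 measured B cell markers -1.74 and -1.84, that of 7 T and NK cell markers -2.19 and -1.83, that of 6 basal markers -0.98 and -0.83 and that of 7 brown adipocyte markers 1.50 and 1.35. In MPB after PND 21-41 replicate 4 the same lists stood at 0.40, -1.56, -1.96, 0.09 and 0.21, and in MPB after GD 1-20 replicate 2 at -0.54, 0.37, 0.48, -0.01 and 0.57. Skeletal muscle also expresses Cpt1b, Cox8b and Ppargc1a of the brown adipocyte list, and these had 11.73, 11.61 and 9.37 in the highest array. Ucp1 and Elovl3, which define brown fat, had 5.53 and 5.53 there, against medians of 5.24 and 5.51. In TCS after GD 1-20 replicate 5 Ucp1 had 6.03, the highest of the 55 arrays (next 5.67), and Elovl3 5.55. Arrays with a flat score could lie as far out, as in MPB after PND 1-20 replicate 1 (score -0.30), where the B cell mean was -1.59 and the T and NK cell mean -2.07, in OIL after PND 1-20 replicate 3 (-0.45), with -1.63 and -1.65, and in OIL after GD 1-20 replicate 2 (-0.45), where the luminal mean was -1.91. The part of these cell types in the muscle levels was not tested.

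For each comparison, limma was fitted over all genes of the table with batch as a term, and a gene was called at an adjusted p (Benjamini-Hochberg over all genes) under 0.05. No member was called in any of the 13 comparisons of a chemical with OIL. The comparisons of one window share their OIL animals, also between DEP and the other chemicals, whose OIL arrays come from the same rats. Their values are therefore set side by side and not counted as separate support. Over all genes the median difference lay between -0.043 and 0.012 in these 13 comparisons, and the share of genes above 0 between 42.1% and 53.4%. Those are the values beside which the members' medians and counts stand.

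After DEP in gestation, all 35 measured members were higher than in OIL, by a median of 1.66, and none was called. The scores were 0.89, -0.47, 5.09, 0.48 and -0.85 in DEP glands, against -0.44, -0.47, -0.54, -0.89 and -0.79 in OIL glands. Thus 3 of 5 DEP arrays lay above every OIL array and 1 of them carried most of the difference. Ttn had 9.56, 6.44, 14.03, 8.78 and 5.63 in DEP glands, against 6.18, 6.22, 6.08, 5.36 and 6.24 in OIL glands, a difference of 2.87 ± 1.41 (SE; adjusted p = 0.69). Of all genes 0% were called, and at an unadjusted p under 0.05 there were 2 of 35 members (Actn2 and Tnnc2) beside 6.97% of genes. The members' median was 0.45 without DEP replicate 3, 0.56 without the arrays above a score of 1, and 2.45 and 0.58 within batch 1 and batch 2. In DEP replicate 3 the centred mean of the 5 measured brown adipocyte markers was 1.85 (OIL at most 0.33). That of the 7 T and NK cell markers was -2.14 (OIL at least -0.11). Of the brown adipocyte markers, Cpt1b, Cox8b and Ppargc1a, which muscle also expresses, had 11.46, 11.12 and 8.75 there. Cidea and Dio2 had 9.95 and 5.78, within the OIL ranges of 9.68 to 10.72 and 5.52 to 5.88. In DEP replicate 4 Cidea and Dio2 had 11.15 and 6.89, above those ranges. Ucp1 and Elovl3 were not measured here. In DEP replicate 4, with a score of 0.48, the 6 smooth muscle markers stood at 1.17 (OIL at most 0.28), the 6 basal markers at 0.83 (OIL at most -0.04), the 7 macrophage markers at -1.06 (OIL at least -0.27) and the T and NK cell markers at -1.28. The summed log2 level of the brown adipocyte list was 37.4 to 47.1 with DEP, against 37.3 to 39.5 with OIL, and that of the T and NK cell list 42.1 to 68.6, against 56.4 to 69.1. All 9 B cell, 7 T and NK cell and 7 macrophage markers were lower with DEP, by medians of -0.85, -0.76 and -0.37, and none was called. The part of these cell types in the muscle levels was not tested.

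After DEP on PND 1-20 the members' median difference was 0.42, with 31 of 35 higher, and it changed sign to -0.63 without DEP replicate 5. In that array the brown adipocyte mean was 1.45 (OIL at most 0.25) and the T and NK cell mean -1.33 (OIL -1.60 to 1.87). Cpt1b, Cox8b and Ppargc1a had 10.96, 9.74 and 8.69 there. Cidea and Dio2 had 10.03 and 5.66, within the OIL ranges of 9.95 to 10.45 and 5.33 to 5.91. The part of these cell types in its muscle levels was not tested. The scores were -0.49, -0.58, -0.48, -0.80 and 3.87 with DEP, against -0.56, 0.57, -0.50, -0.94 and 1.16 with OIL. Within batch 1 and batch 2 the median was -0.28 and 1.42. No member had an unadjusted p under 0.05, where 2.72% of genes did, and 0% of genes were called.

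After DEP on PND 21-41 the median was -0.27, with 1 of 35 members higher, and both groups held high arrays. The scores were -0.59, -0.59, 1.21, -0.60 and -0.97 with DEP, against 1.64, -0.63, -0.58, 0.52 and -1.08 with OIL. Without OIL replicate 1 the median was 0.12, and within batch 1 and batch 2 it was -0.12 and -0.54. No member had an unadjusted p under 0.05 (2.26% of genes did), and 1 gene of 6762 was called (0.0148%).

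After DEP on PND 42-62 all 35 members were higher than in OIL, by a median of 1.28. The scores were -0.65, 0.47, -0.72, 2.68 and 0.52 with DEP, against -0.60, -0.62, -0.61, -1.03 and -1.06 with OIL, so 3 DEP arrays lay above every OIL array. The flat level differed between batches in this table. In batch 1 the 3 DEP arrays (-0.65, 0.47 and -0.72) held 1 above and 2 just below the 3 OIL arrays, and in batch 2 both DEP arrays lay above both OIL arrays. Ckm had 7.01, 9.75, 7.12, 12.29 and 9.84 in DEP glands, against 7.36, 7.27, 7.07, 6.93 and 6.80 in OIL glands, a difference of 2.11 ± 0.77 (adjusted p = 0.29). Neb differed by 2.08 ± 0.55 (adjusted p = 0.23), Ttn by 2.37 ± 0.81 (0.28), Eno3 by 1.66 ± 0.50 (0.24) and Tnni1 by 0.14 ± 0.11 (0.56). At an unadjusted p under 0.05 there were 19 of 35 members and 14.7% of genes, and 0% of genes were called. The median was 0.64 without DEP replicate 4, the array above a score of 1, and 0.27 and 2.98 within batch 1 and batch 2. The 9 measured B cell markers were all higher with DEP as well, by a median of 0.97, and their summed log2 level was 60.5 to 86.5 with DEP, against 59.1 to 76.5 with OIL. The 12 white adipocyte markers were all lower, by a median of -0.38, with a summed level of 119 to 126 with DEP, against 126 to 129 with OIL. No marker of either list was called, and the part of these cell types in the muscle levels was not tested.

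After MPB in gestation all 37 members were higher than in OIL, with a median difference of 2.10, the widest of the 13 comparisons. The scores were 4.90, 3.04, 0.62, -0.52 and -0.52 in MPB glands, against -0.40, -0.45, -0.51, -0.47 and -0.32 in OIL glands. All 3 batch 1 arrays of MPB were above every OIL array, and both batch 2 arrays were just below the OIL range. Ttn had 13.28, 11.93, 9.12, 5.85 and 5.94 with MPB, against 5.96, 5.95, 5.82, 5.83 and 6.83 with OIL, a difference of 3.15 ± 1.32 (adjusted p = 0.98). Ckm differed by 2.74 ± 1.13, Acta1 by 2.28 ± 1.01, Casq1 by 2.55 ± 1.19, Mb by 1.90 ± 0.79, Tnni2 by 1.72 ± 0.88 and Tnni1 by 0.80 ± 0.39 (adjusted p = 0.98 each). At an unadjusted p under 0.05 there were 25 of 37 members, beside 4.02% of genes, and 1 gene of 18166 was called (0.0055%). Within batch 1 the median was 3.49 and 3 members (Acta1, Myl1 and Ttn) were called, beside 4 of 18166 genes in all (0.022%), while within batch 2 it was -0.12 and 0 were called, with 0 members at an unadjusted p under 0.05. The median was 1.18 without replicate 1 and 0.36 without the 2 arrays above a score of 1. All 8 measured genes of the neuromuscular junction list and all 9 of the myogenic list were higher too, with medians of 0.47 and 0.37, and replicate 1 carried most of this. Without it the medians were 0.07 (7 of 8 higher) and 0.13 (6 of 9 higher), and without the 2 arrays above a score of 1 they were -0.01 (3 of 8) and 0.12 (5 of 9). The 9 measured B cell markers were all lower, with a median difference of -0.62, and their summed log2 level was 60.6 to 86.3 with MPB, against 71.7 to 88.9 with OIL. The 15 luminal markers had 104 to 126 with MPB, against 105 to 127 with OIL. Their part in the muscle difference was not tested.

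After MPB on PND 1-20 the members were lower than in OIL by a median of -0.54, with 1 of 37 higher. The scores were -0.30, -0.34, -0.43, -0.50 and -0.49 with MPB, against -0.50, 0.47, -0.45, -0.48 and 1.83 with OIL, so the difference came with 2 high OIL arrays and the other arrays overlapped. Without OIL replicate 5 the median was -0.14, and within batch 1 and batch 2 it was -0.11 and -1.15. No member had an unadjusted p under 0.05 (1.67% of genes did), and 0% of genes were called.

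After MPB on PND 21-41 the median was 0.04, with 22 of 37 members higher. The scores were -0.50, -0.58, -0.54, 3.05 and -0.47 with MPB, against 1.42, -0.60, -0.55, 1.16 and -0.59 with OIL. The median was -0.62 without MPB replicate 4 and 0.48 without OIL replicate 1, and -0.62 and 1.09 within batch 1 and batch 2. No member had an unadjusted p under 0.05, although 9.84% of genes did, and 0% of genes were called.

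After MPB on PND 42-62 no array of either group was high, and the median difference was 0.02. The scores were -0.66, -0.22, -0.67, -0.64 and -0.58 with MPB, against -0.55, -0.58, -0.58, -0.52 and -0.57 with OIL. Acta1 had 7.62, 8.50, 7.12, 7.89 and 7.98 with MPB, against 7.91, 9.48, 9.30, 8.86 and 7.85 with OIL, a difference of -0.86 ± 0.35 (adjusted p = 0.24). Along with Acta1, Cav3 (-0.24 ± 0.08) and Trdn (0.33 ± 0.14) had an unadjusted p under 0.05, which made 3 of 37 members beside 17.8% of genes. Of all genes, 0.0055% were called. Within batch 1 and batch 2 the median was 0.04 and -0.04. It was -0.08 without MPB replicate 2, the array with the score of -0.22.

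After TCS in gestation all 37 members were higher than in OIL by a median of 1.07, and 1 array made the difference. The scores were -0.40, -0.44, -0.35, -0.49 and 4.54 in TCS glands, against -0.40, -0.45, -0.51, -0.47 and -0.32 in OIL glands. Without TCS replicate 5 the median was -0.05, and within batch 1, which does not hold that array, it was 0.06, against 2.75 within batch 2. Ttn differed by 1.53 ± 1.32 (adjusted p = 0.84). No member had an unadjusted p under 0.05 (6.8% of genes did), and 0.0055% of genes were called.

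After TCS on PND 1-20 and on PND 21-41 no TCS array was high, and the members' medians were -0.46 (1 of 37 higher) and -0.23 (7 of 37 higher). The scores on PND 1-20 were -0.47, -0.42, -0.51 and -0.21 with TCS, against the OIL scores given above. On PND 21-41 they were -0.35, -0.52 and -0.60 with TCS. Without OIL replicate 5 the earlier median was -0.13, and within batch 1 and batch 2 it was -0.26 and -1.01. Without OIL replicate 1 the later median was 0.35, with OIL replicate 4 (score 1.16) kept in the fit. The later median was -0.62 within batch 1, the one batch with TCS arrays of that window. In both windows 0 members and 0% of genes were called, and 0 members had an unadjusted p under 0.05, beside 6.25% of genes after PND 1-20 and 2% after PND 21-41.

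After TCS on PND 42-62 the members were higher by a smaller amount, but in every TCS array. The scores were -0.13, 0.04 and -0.10 in the 3 TCS glands, against -0.55, -0.58, -0.58, -0.52 and -0.57 in OIL glands, so the groups did not overlap. For 21 of 37 members each TCS array was above each OIL array, beside 1.54% of all genes (280). These were 5 of 6 energy genes, 9 of 13 Z-disc and cytoskeletal genes, 3 of 5 calcium genes, 2 of 3 fast troponins, Neb and Myl1, and none of the 3 slow troponins or Trim63. The median difference was 0.41, with 35 of 37 members higher.

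Ttn had 7.17, 7.80 and 7.23 in TCS glands, against 5.98, 5.82, 5.93, 6.01 and 5.97 in OIL glands, a difference of 1.40 ± 0.28 (limma, adjusted p = 1.00). Myl1 had 9.14, 9.83 and 9.17 with TCS, against 7.43, 7.46, 7.82, 7.25 and 7.68 with OIL, and differed by 1.76 ± 0.38. Ckm had 8.22, 8.85 and 8.20 with TCS, against 7.33, 7.13, 6.97, 7.28 and 7.11 with OIL (1.20 ± 0.28). For all 3 genes the lowest TCS array exceeded the highest OIL array. Acta1 did not separate the groups, with 8.56, 9.55 and 9.38 with TCS, against 7.91, 9.48, 9.30, 8.86 and 7.85 with OIL (0.41 ± 0.43). Tnnc2 differed by 1.01 ± 0.21, Actn3 by 0.92 ± 0.20, Casq1 by 0.50 ± 0.15, Mb by 0.50 ± 0.17, Tnni2 by 0.46 ± 0.18 and Tnni1 by 0.02 ± 0.08. At an unadjusted p under 0.05 there were 22 of 37 members, beside 3.01% of genes. No member was called and 0% of genes were called (adjusted p = 1.00 for each member).

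All 3 TCS arrays of this window were batch 1, and against the 3 OIL arrays of batch 1 alone the median was 0.42. Leaving out each array in turn gave 0.34 to 0.43. The 9 measured B cell markers were all higher with TCS too, by a median of 0.92, with a summed log2 level of 63.2 to 87.1, against 60.8 to 76.3 with OIL. The 12 white adipocyte markers were all lower, with 120.0 to 130 against 127 to 131. The part of these cell types in the muscle levels was not tested.

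**Figure D4:**
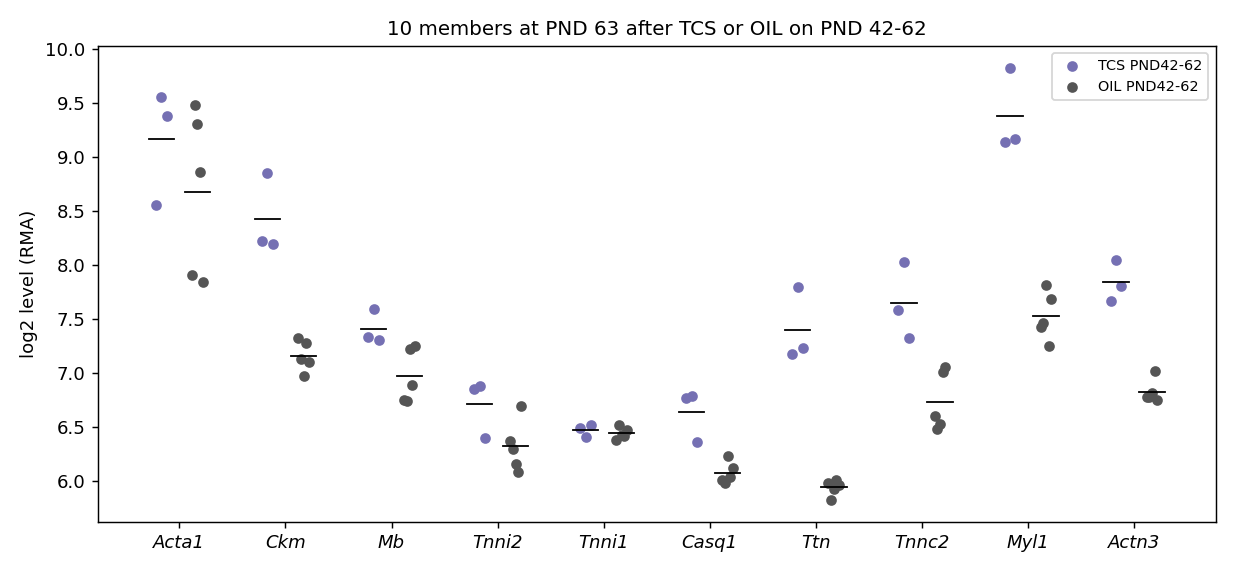
Log2 levels of 10 members in 3 TCS and 5 OIL glands after PND 42-62 (points are arrays, lines are means). Ckm, Mb, Casq1, Ttn, Tnnc2, Myl1 and Actn3 do not overlap between the groups, while Acta1, Tnni2 and Tnni1 do.

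After chronic TCS to the end of lactation the members were lower than in OIL by a median of -0.56, with 3 of 37 higher, and the groups overlapped. Acta1 had 7.93, 9.78 and 6.75 in TCS glands, against 7.94, 8.98 and 10.32 in OIL glands, a difference of -0.93 ± 0.81 (adjusted p = 0.67). The scores were -0.53, 0.54 and -0.85 with TCS, against -0.80, 0.37 and 1.26 with OIL, and without OIL replicate 3 the median was -0.07. Myh8 was between 3.80 and 5.52 in these 6 arrays. The summed log2 level of the 8 measured neuromuscular junction genes was 44.99 to 46.71 with TCS, against 43.04 to 44.90 with OIL. It was thus higher with TCS, while the members were lower. Several cell type lists did not overlap between the groups either. The share of all genes without overlap was not computed, so these sums are a description only. The summed log2 level was 61.5 to 62.8 with TCS, against 57.5 to 58.7 with OIL, for the 7 blood endothelium markers, 102 to 116 against 98.3 to 102 (101.8 and 101.6 at the near ends) for the 12 white adipocyte markers, and 59.96 to 66.74 against 55.03 to 59.82 for the 7 macrophage markers. It was 50.5 to 52.6 with TCS, against 48.7 to 49.7 with OIL, for 6 smooth muscle markers, 33.6 to 35.6 against 32.2 to 32.5 for 4 Schwann cell markers and 45.9 to 47.2 against 44.8 to 45.4 for 9 B cell markers. The 7 brown adipocyte markers had a lower sum with TCS, at 37.8 to 38.4, against 38.5 to 39.0 with OIL, although their median difference was 0.10. The lower sum rested on Cidea, which had 10.17, 10.69 and 9.87 with TCS, against 12.25, 11.35 and 11.48 with OIL. It thus does not describe the list as a whole. No marker of these lists was called, and the part of these cell types in the muscle levels was not tested. No member had an unadjusted p under 0.05 (12.9% of genes did), and 0% of genes were called.

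**Figure D5:**
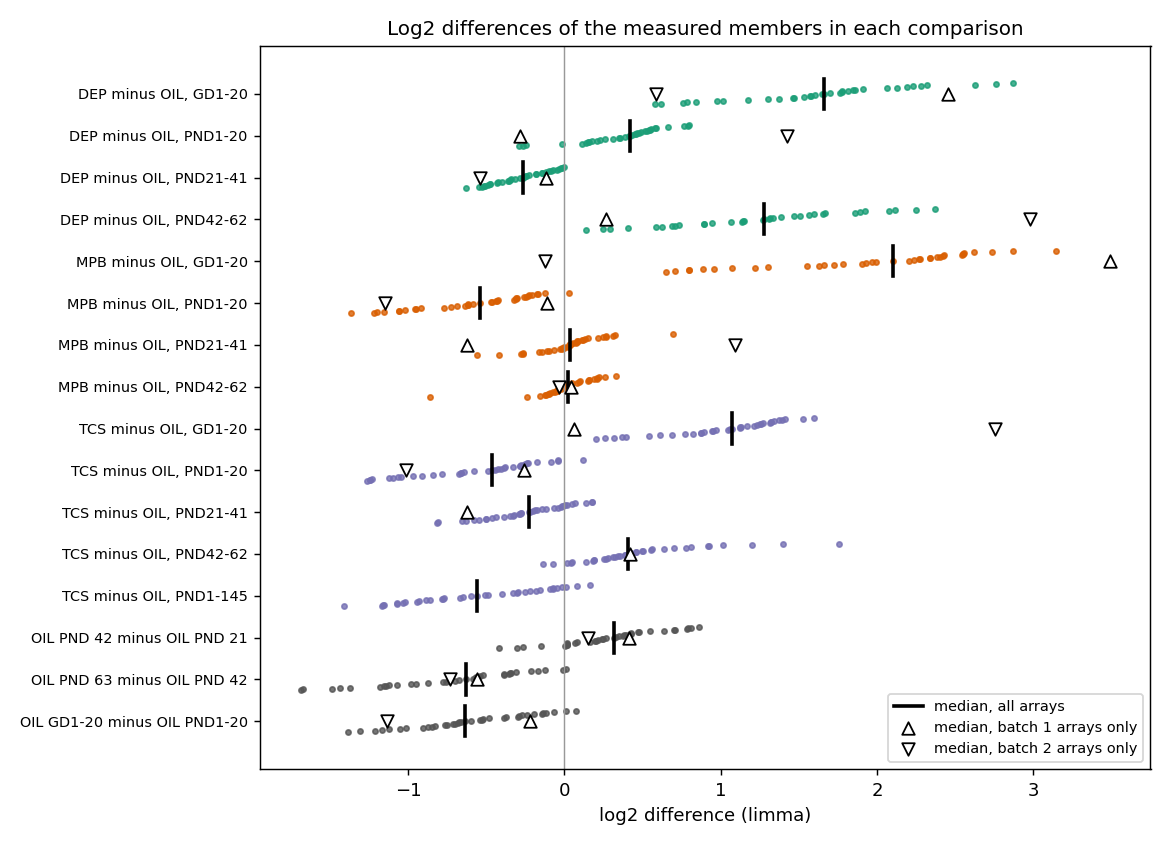
Log2 difference (limma) of each measured member in 16 comparisons, with the median over all arrays (line) and within each batch (triangles). The members of most comparisons lie on one side of 0, and the medians within batch 1 and batch 2 lie apart, at 3.49 and -0.12 for MPB after GD 1-20 and at 0.06 and 2.75 for TCS after GD 1-20.

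In OIL glands alone, 1 member was called between ages. Xirp1, an actin-binding protein of muscle attachment sites, had a median of 6.91 in the OIL group killed at PND 42, against 7.19 (GD 1-20) and 7.23 (PND 1-20) in the OIL groups killed at PND 21, and fell by 0.30 ± 0.10 at PND 42 relative to the mean of those groups (adjusted p = 0.037). Of all genes 22.4% were called, so 1 of 37 members is a smaller share than the background. At an unadjusted p under 0.05 there were 3 members (Xirp1, Mybpc2 and Des) and 32.8% of genes. The Xirp1 call was lost without a batch term and in batch 1 or batch 2 alone, and it was lost without OIL replicate 3 or 4 of GD 1-20, replicate 5 of PND 1-20, or replicate 2, 3 or 5 of PND 21-41. The members' median was 0.32 (33 of 37 higher), 0.41 and 0.16 within batch 1 and batch 2, and -0.26 (7 of 37 higher) without the 3 OIL arrays above a score of 1, when Mybpc2 was called higher and Des, Eno3, Ldb3, Neb, Pygm and Xirp1 lower, 7 of 37 members beside 13% of genes. Within batch 1 Mybpc2 alone was called, beside 16.6% of genes.

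Of the 8 measured genes of the neuromuscular junction list, 4 were called higher at PND 42 than at PND 21, where 22.4% of all genes were called. These were Rapsn (0.92 ± 0.14), which clusters acetylcholine receptors, Chrnb1 (0.55 ± 0.08), Chrna1 (0.45 ± 0.15) and Lrp4 (0.43 ± 0.11), the receptor for agrin. Several of these are also made outside muscle. The myogenic, slow and cardiac, and dystrophin complex lists had 9, 10 and 9 measured genes. Among them Mef2c fell by 0.77 ± 0.10, Casq2 (cardiac and slow calsequestrin) by 0.62 ± 0.19, Itga7 by 0.91 ± 0.11 and Dmd by 0.47 ± 0.14, and Dag1 was higher by 0.27 ± 0.08. Beside them, 14 of 15 luminal markers were called higher and all 9 B cell markers lower.

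Between PND 63 and PND 42 in OIL glands the members were lower by a median of -0.63, with 1 of 37 higher and 0 called, beside 0.782% of genes. Actn3 (-1.43 ± 0.47, adjusted p = 0.18) and Pygm (-0.95 ± 0.42, adjusted p = 0.34) had an unadjusted p under 0.05, as did 12.7% of genes. Without the OIL arrays above a score of 1 the median was -0.03, and within batch 1 and batch 2 it was -0.56 and -0.73. Between OIL glands after GD 1-20 and after PND 1-20, both taken at PND 21, the median was -0.63 (2 of 37 higher), -0.22 and -1.14 within batch 1 and batch 2, and -0.16 without OIL replicate 5 of PND 1-20. Tnnc1 (-0.54 ± 0.24, adjusted p = 0.70) alone had an unadjusted p under 0.05, beside 6.8% of genes, and 0.0055% of genes were called.

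Whether the difference from OIL itself changed between gestational and early postnatal exposure was tested as a contrast for each chemical, and no member was called. The members' median of that contrast was 1.24 for DEP (35 of 35 above 0), 2.62 for MPB and 1.68 for TCS (37 of 37 above 0 each), and 0% of genes were called in each. At an unadjusted p under 0.05 there were 0 members for DEP beside 7.68% of genes, 17 for MPB beside 2.67%, and 1 (Tnnc1) for TCS beside 4.85%. Leaving out DEP after GD 1-20 replicate 3, MPB after GD 1-20 replicate 1 or TCS after GD 1-20 replicate 5 gave 0.05, 1.73 and 0.57. These contrasts share their OIL animals, and the OIL difference between the windows enters each with its sign reversed. That difference had a median of -0.63 among the MPB, TCS and OIL arrays, so part of each contrast is a difference between OIL groups. Values without the high OIL arrays are not given here. Within batch 1 and batch 2 the median was 2.69 and -0.87 for DEP, 3.69 and 1.02 for MPB, and 0.32 and 3.55 for TCS.

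The genes outside the list whose level was most like the member score over the 55 arrays were Myom2, a protein of the sarcomere's M-band (r = 0.99), Cox6a2, the muscle subunit of cytochrome oxidase (0.97), Ankrd23, Hjv and Fitm1 (0.97 each), Srl and Csrp3 (0.96 each), Myoz2 (0.96), Ppp1r3a, the muscle glycogen-targeting subunit of protein phosphatase (0.95), Txlnb, Tceal7 and Cacng1 (0.95 each). Without the 2 highest arrays Myom2 kept 0.98 and Cox6a2 had 0.95. The lowest were Chka (-0.73), Slc17a9 (-0.72), Rassf6 (-0.71), Sidt1 and Stxbp2 (-0.70 each), and without the 2 highest arrays these lay between -0.32 and -0.48. These values describe 55 arrays that share a table and a few high arrays.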

How the data were processed

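Each deposited value was a log2 level of 1 transcript cluster. The submitters' processing notes name RMA and Affymetrix Expression Console, without versions, and the genome build is not given in the sources used here. The authors deposited MPB, TCS and OIL arrays (36685 clusters), DEP and OIL arrays (7780 clusters) and 6 lactation arrays as tables in which an OIL array can hold other values, so tests and levels stay within a table. The DEP table held only clusters with an SD of at least 0.150 over its arrays, so its background is of variable genes. Of a gene's clusters with 1 symbol the highest mean was used, with no filter on low values.

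Comparisons were fitted with limma 3.58.1 (lmFit and eBayes, 2-sided) in R 4.3.3 on all groups of 1 age, adding batch except at lactation. OIL ages used the 20 OIL arrays. On simulated data with each gene's own residual SD (median 0.186), 89% of random genes changed by a log2 of 1 and 98% changed by 2 were recovered for MPB after GD 1-20, and 63% and 93% for chronic TCS (18166 genes). Members have a median SD of 1.29, so these shares are not theirs. Alternatives were no batch term, each batch alone, a mean over a gene's clusters, a mean log2 of at least 5 and each array left out. All 42 members could be named, 8 of them array by array (Atp2a1 was not measured), along with the 12 genes most like the score and the 5 least like it. Myl1 array by array, Tnnc2 and Actn3 in a plot, related genes beyond 4 of a list and single markers were named after their values were seen. Arrays of a group come from separate animals per the labels' protocols. The members and lists were chosen with earlier results of these data known.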

Additional observations from a re-analysis of the deposited data

Results flagged for a closer look

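In 41 of 112 sets of 4 or 5 arrays tested (1 gene of the array-by-array panel or the score, in 1 group), the highest array stood apart, in that its gap to the next array was a larger part of the group's range than Dixon's 95% value. Chance gives about 1 in 20 such sets, and the sets share arrays. In MPB after PND 21-41 replicate 4 the gap, as a share of the range, was 0.969 for the member score, 0.862 for Acta1, 0.945 for Ckm, 0.895 for Mb, 0.817 for Tnni2, 0.875 for Tnni1, 0.955 for Casq1 and 0.933 for Ttn. For MPB after PND 42-62 replicate 2 the share of the range was 0.803 for the member score, 0.877 for Ckm and 0.892 for Ttn. TCS after GD 1-20 replicate 5 had a share of 0.973 for the member score, 0.901 for Acta1, 0.849 for Ckm, 0.926 for Mb, 0.915 for Tnni2, 0.908 for Casq1 and 0.928 for Ttn. In TCS after PND 1-20 replicate 4 the gap, as a share of the range, was 0.953 for Ttn. For OIL after GD 1-20 replicate 5 the share of the range was 0.868 for Ttn. OIL after PND 1-20 replicate 5 had a share of 0.812 for Mb and 0.840 for Tnni1. In DEP after GD 1-20 replicate 3 the gap, as a share of the range, was 0.712 for Mb and 0.743 for Tnni2. For DEP after PND 1-20 replicate 5 the share of the range was 0.930 for the member score, 0.875 for Acta1, 0.919 for Ckm, 0.929 for Mb, 0.912 for Tnni2, 0.736 for Tnni1, 0.902 for Casq1 and 0.894 for Ttn. DEP after PND 21-41 replicate 3 had a share of 0.825 for the member score, 0.820 for Acta1, 0.879 for Ckm, 0.805 for Mb, 0.784 for Tnni2, 0.880 for Casq1 and 0.721 for Ttn. In DEP after PND 42-62 replicate 4 the gap, as a share of the range, was 0.713 for Tnni2 and 0.711 for Tnni1.

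The 4 clusters annotated to several myosin heavy chain genes, among them Myh1, Myh2, Myh4 and Myh3, were outside the comparisons because no 1 gene can be named from them. Their highest log2 levels were 13.08 (TCS after GD 1-20 replicate 5), 12.65 (MPB after GD 1-20 replicate 1), 8.59 (MPB after GD 1-20 replicate 1) and 6.41 (TCS after GD 1-20 replicate 5), against highest OIL levels of 10.99, 10.24, 7.20 and 6.12. Over the 55 arrays they followed the member score with r = 0.95, 0.97, 0.90 and 0.88, as a description. Which of the myosins the signal comes from was not tested.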

How the results depend on the processing

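With no batch term, each batch alone, a mean over clusters, a filter on low levels or an array left out, the number of called members stayed at 0 wherever DEP, MPB or TCS was set against OIL, except MPB after GD 1-20, where 3 members were called within batch 1, beside 0.022% of genes. For OIL at PND 42 against PND 21, where 1 member was called, the count was 0 with no batch term and 0 within batch 2, and 0 to 2 when each array was left out, while 18.8% to 24.9% of genes were called. Within batch 1 the count was again 1, but the gene was Mybpc2 in place of Xirp1, beside 16.6% of genes. Chosen after seeing the data, leaving out arrays with a member score above 1 gave 7 for that comparison, beside 13% of genes. The cause of these changes was not tested. The authors' separate tables of MPB with OIL and of TCS with OIL, also tried after seeing the data, gave 0 called members in each of their comparisons. Of 332 members' medians under alternatives over all comparisons, 18 changed sign and 81 kept it but moved by over 1.5 times. Members in the top 1% of within-group SD numbered 27 with the filter on low values and 27 with no batch term, against 28. No paired analysis was possible because the labels give the compared groups no shared replicate numbers that pair animals. Few arrays per group, and high arrays in 1 batch of a group, limit the differences. Most members had a low, flat level in most arrays, which may limit how small a change can be seen. No floor of the array was estimated.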
